A study of Mus musculus with 4 samples.

Results

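The regions described here are distal peaks that were called in the EGFP_OK library and in neither of the other FLAG libraries. They were selected from the peak lists of chromosomes 1 to 19 by position alone. A peak was kept when it overlapped no Pax6 and no Etv6 peak by even 1 bp and its summit lay more than 50 kb from the nearest edge of any H3K4me2 peak. Of the 27730 EGFP_OK peaks on these chromosomes, 4373 met the rule, which is 15.8% (exact binomial 95% interval 15.3 to 16.2). They are called distal EGFP_OK-only peaks below. This interval, like those that follow, reflects counting error alone and treats peaks as if they were independent, which neighbours are not.

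The material was mouse neural progenitor-like cells of strain 129/SvJ, derived from embryonic stem cells by replating adherent neural differentiation cultures at day 7, grown with EGF and FGF-2 at 10 ng/ml each and used at passages 15 to 18, in a study of transcription factors that act against dedifferentiation. Chromatin immunoprecipitation with sequencing gave 1 library per group. Of the 4 libraries, 3 were precipitated with the anti-FLAG M2 antibody, and their titles name EGFP_OK, Pax6 and Etv6. The fourth was precipitated with an antibody against H3K4me2, and its title names Oct4, EGFP and 0 hr. N31 stands in the titles of EGFP_OK and H3K4me2, and NS in those of Pax6 and Etv6. Which protein carried the tag in EGFP_OK, how tagged proteins were expressed, and whether N31 and NS are the same line are not given in the sources used here. Differences between the tagged proteins and between the cell cultures thus cannot be told apart.

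Dimethylation of lysine 4 on histone H3 (H3K4me2) marks nucleosomes at active and poised promoters and enhancers. Sequence-specific transcription factors bind at such elements and also at places far from any promoter, and in neural cells many developmental genes have regulatory elements at a great distance. Pax6 is a paired-box and homeobox factor of eye and forebrain development, and Etv6 is a factor of the ETS family that is known mainly as a repressor. The FLAG epitope is a short peptide tag, so a FLAG library reports where a tagged protein, or anything else the antibody retains, was recovered.

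There was no control library, and with 1 library per group there is no replicate error and no test between conditions. The libraries kept between 5288154 and 24550365 tags after removal of duplicates, with 21498324 in EGFP_OK, 24071748 in Etv6 and 5288154 in Pax6. Absence from the Pax6 list therefore rests on fewer tags than absence from the Etv6 list. The median distal EGFP_OK-only peak held 42 tags, which in proportion to the kept tags corresponds to 10.3 tags in the Pax6 library and 47.0 in the Etv6 library. The weakest called peaks of those lists held 10 and 18 tags. In this proportion 53.1% of the distal EGFP_OK-only peaks would reach the lowest tag count called in Pax6, and all 4373 would reach the lowest one called in Etv6. The Etv6 value follows from the depths alone, since even the weakest EGFP_OK peak, with 19 tags, exceeds 18 when scaled up. The median peak of the other list would be reached by 15.4% for Pax6, at 19 tags, and by 38.9% for Etv6, at 54 tags. These shares assume the same enrichment in the other library, and the lowest tag count of a list is not a detection limit. They therefore do not give how many of the sites could have been called.

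The first question was where, relative to H3K4me2, the EGFP_OK library held peaks that the other FLAG libraries did not. Far from H3K4me2 nearly every EGFP_OK peak stood alone. Of the 4655 EGFP_OK summits more than 50 kb from H3K4me2, 93.9% (93.2 to 94.6) had no Pax6 or Etv6 peak, against 89.6% (89.1 to 90.1) of the summits outside H3K4me2 but within 50 kb and 39.9% (38.8 to 41.0) of those inside it. An Etv6 peak overlapped 57.1% of the EGFP_OK peaks inside H3K4me2, 8.68% of those within 50 kb and 4.43% of those farther away. For Pax6 the values were 28.9%, 5.83% and 4.08% in that order. Both partners thus became rarer with distance, and the larger step lay at the edge of H3K4me2, not at 50 kb. The rule itself used these overlaps, so they are given as a description.

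A larger share of the EGFP_OK list than of the other FLAG lists lay beyond the 50 kb limit. More than 50 kb from H3K4me2 lay 16.8% (16.3 to 17.2) of the EGFP_OK summits, 12.2% (11.7 to 12.7) of the Pax6 summits and 8.63% (8.32 to 8.96) of the Etv6 summits. With the 16233 highest scores of each list the values were 16.6%, 12.2% and 8.21%. The EGFP_OK share was above the Etv6 share on 19 of 19 chromosomes and above the Pax6 share on 15. Counterparts chosen in the same way from the other libraries, distal and in no other FLAG list, made up 4.43% of all Pax6 peaks and 4.44% of all Etv6 peaks. Seen within the distal peaks, 36.4% (34.3 to 38.6) of the Pax6 ones and 51.4% (49.4 to 53.3) of the Etv6 ones were in no other FLAG list.

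Counted per Mb of territory at a given distance, EGFP_OK summits fell off later than Etv6 summits. Territory means the bases between neighbouring H3K4me2 peaks, sorted by distance to the nearer one. All bases were counted, here and in the later densities, including any where tags cannot be placed. A low density can thus not be told apart from such sequence. Within 10 kb of H3K4me2 there were 11.7 EGFP_OK summits per Mb (exact Poisson 95% interval 11.5 to 12.0), and from 20 to 50 kb there were still 11.1 (10.8 to 11.4). Over the same steps Etv6 went from 10.1 to 6.95 per Mb and Pax6 from 5.72 to 4.60 per Mb. From 50 to 100 kb EGFP_OK stood at 9.05 (8.70 to 9.42), Etv6 at 4.87 and Pax6 at 3.40 per Mb. Beyond 500 kb the lists came close together, at 0.820 (0.693 to 0.963), 0.637 and 0.748 per Mb. There the 148 EGFP_OK summits were hardly more than the 135 Pax6 summits, although the EGFP_OK list was the longer one. The ratio of EGFP_OK to Etv6 summits was 1.16 within 10 kb, 1.86 from 50 to 100 kb and 1.29 beyond 500 kb. The ratio to Pax6 summits was 2.05, 2.67 and 1.10. As a ratio, the EGFP_OK excess over both lists was thus widest from 50 to 100 kb.

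**Figure D1:**
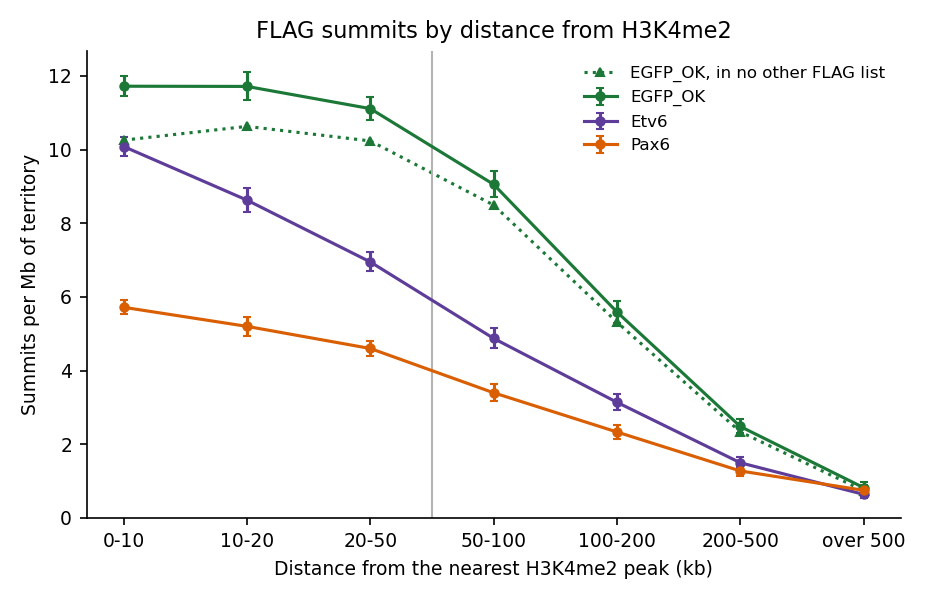
Summits per Mb of territory (y axis) against the distance from the nearest H3K4me2 peak in kb (x axis), for the EGFP_OK, Etv6 and Pax6 lists on chromosomes 1 to 19 and, dotted, for EGFP_OK peaks in no other FLAG list, with exact Poisson 95% intervals as bars on the full lists and the 50 kb limit as a vertical line. EGFP_OK stays near 11 to 12 per Mb up to 50 kb while Etv6 falls from 10.1 to 6.95, and all lists are below 1 per Mb beyond 500 kb.

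Within the distal set most peaks lay in the nearer part. From 50 to 100 kb lay 2306 of the 4373 peaks (52.7%), from 100 to 200 kb 1276, from 200 to 500 kb 646, and beyond 500 kb 145 (3.32%). The median distance from H3K4me2 was 96.1 kb, with quartiles of 66.7 and 162 kb. Fold enrichment is the tag level at the summit over the background that the peak caller took from the same library, and it is the authors' value for each peak. Its medians over these 4 steps were 7.18, 7.27, 7.19 and 7.06, with intervals that overlapped. The tags per peak did become fewer, with medians of 45, 40.5, 39 and 34, and so did the width, from 1112 to 990 bp. The nearest FLAG peaks of the other lists receded as well, from a median of 74.6 kb for Etv6 in the first step to 692 kb in the last.

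The H3K4me2 peaks that bordered these regions were narrower than the list as a whole. There were 2329 different H3K4me2 peaks nearest to a distal EGFP_OK-only peak, which is 4.80% of the list, and their median width was 1230 bp, against 1638 bp over all 48520. They held a median of 66 tags, against 122. Their median score was 134, against 173, while their median fold enrichment was 6.17, against 5.82. The border peaks were thus smaller and lower in score, and not lower in fold. The H3K4me2 peaks nearest to an EGFP_OK-only peak within 50 kb had medians of 1530 bp, 97 tags, a score of 154 and 5.815-fold. H3K4me2 peaks beside wide stretches without a distal EGFP_OK-only peak were not compared, so the difference is not shown to be particular to these borders. The fold is relative to the background taken for each peak, so it does not compare the summits themselves.

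The second question was how strong the distal EGFP_OK-only peaks were beside the other EGFP_OK peaks. Their median fold enrichment was 7.22 (order-statistic 95% interval 7.07 to 7.38), with quartiles of 5.95 and 9 and a range of 2.89 to 22.1. The EGFP_OK-only peaks outside H3K4me2 but within 50 kb had the same median of 7.22 (7.12 to 7.27). Those inside H3K4me2 had 6.42 (6.32 to 6.53), and peaks shared with Pax6 or Etv6 had 6.50 (6.42 to 6.57). The distal peaks were thus like the nearer unmarked ones in fold and above both other groups. In tags they were the lowest, with a median of 42 against 48, 48 and 52, and in width too, with 1084 bp against 1133, 1173 and 1219 bp. Per length the tag counts were closer, at 39.1 tags per kb against 41.6, 39.7 and 41.1. A width over 2 kb was found in 2.38% of the distal peaks and in 11.1% of the shared ones.

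**Figure D2:**
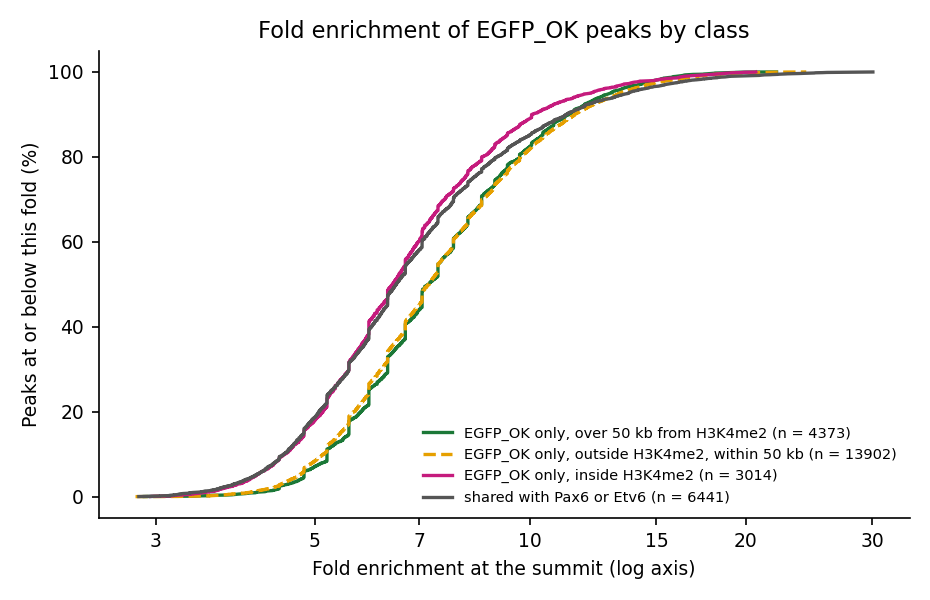
Cumulative share of peaks in percent (y axis) at or below a given fold enrichment at the summit (x axis, log scale) for 4 classes of EGFP_OK peaks. The distal EGFP_OK-only curve runs along that of the nearer unmarked peaks, both with a median of 7.22, and up to 10-fold it lies to the right of the curves for peaks inside H3K4me2 (6.42) and shared peaks (6.50).

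Part of the fold values rests on how the background was taken. The peak caller divides a summit by the larger of the genome-wide background and that of the surrounding 10 kb. The headers put the genome-wide background at 2.69 tags in EGFP_OK, so a fold set by it is a whole number of tags over this value. By this measure, with a tolerance of 0.0155 tags, 38.5% (37.0 to 39.9) of the distal EGFP_OK-only peaks had their fold set by the genome-wide background, against 24.4% (23.7 to 25.1) of the nearer unmarked peaks, 20.5% of those inside H3K4me2 and 20.8% (19.8 to 21.8) of the shared peaks. About 3.09% of unrelated values would meet the tolerance. Among peaks on the genome-wide background alone, the median fold was 7.06 for 1683 distal peaks, 7.06 for 3391 nearer unmarked peaks, 6.32 for 618 peaks inside H3K4me2 and 6.69 for 1341 shared peaks. The order of the groups was kept, and the medians of 7.06 and 6.32 stand for summits of 19 and 17 tags.

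Counts past a moderate level were close to those of the whole list, and counts past a high level were lower. A fold of at least 10 was reached by 766 distal EGFP_OK-only peaks (17.5%, interval 16.4 to 18.7), against 16.5% of all EGFP_OK peaks. A score of at least 100 was reached by 1931 (44.2%, interval 42.7 to 45.6), against 45.5% of all. The score is 10 times the −log10 of the caller's p-value. A fold of at least 15 was reached by 83 (1.90%, interval 1.51 to 2.35), against 2.57% of all, and a score of at least 200 by 577 (13.2%, interval 12.2 to 14.2), against 14.6% of all. Cut into 10 equal parts by score, the list held the fewest distal peaks at the top, 13.5% (12.3 to 14.9), and the most at the bottom, 17.3% (16.0 to 18.8). Cut by fold, the share was 15.7% in the top part, highest in the third at 18.6%, and lowest in the bottom one at 9.59% (8.52 to 10.7). Among the 100 highest folds of the list there were 2 of them, and among the 100 highest scores 9.

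Distal EGFP_OK peaks that did have a Pax6 or Etv6 peak were few and stronger. There were 282 of them, with a median fold of 7.81 (7.43 to 8.07) and a median of 49 tags. A score of at least 100 was reached by 58.2% (52.2 to 64.0) of these, against 44.2% of the distal EGFP_OK-only peaks. A fold of at least 15 was reached by 7.09% (4.39 to 10.7), against 1.90%. The share on the genome-wide background was 36.9%, near the 38.5% of the distal EGFP_OK-only peaks.

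The limit of 50 kb did not mark a step in the peaks' strength. The 2 members nearest to it lay on chromosome 3 from 139521161 to 139522370, 50.0 kb from H3K4me2 with 50 tags at 4.83-fold, and on chromosome 16 from 74981307 to 74981985, 50.1 kb away with 24 tags at 6.73-fold. Just within it lay a peak on chromosome 14 from 108879116 to 108879714, with 32 tags at 9.46-fold, and one on chromosome 5 from 98184815 to 98186127, with 107 tags at 12.2-fold. Over the 482 EGFP_OK-only peaks from 45 to 50 kb the median was 7.43-fold with 46 tags. Over the 391 from 50 to 55 kb it was 7.35-fold with 46 tags.

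The single regions below are given by position in build mm9. No genome or annotation of that build was used, so their sequences and genes were not analysed here. By score, the strongest distal EGFP_OK-only peak lay on chromosome 9 from 89021250 to 89022926, with 284 tags, 12.9-fold and a score of 888, and ranked 30 in the EGFP_OK list. It lay 59.0 kb from H3K4me2, 104 kb from an Etv6 peak and 232 kb from a Pax6 peak. The next, on chromosome 16 from 58087136 to 58089642, held 405 tags at 15.5-fold and had a Pax6 peak 3.53 kb and an Etv6 peak 7.05 kb from its summit, although neither overlapped it. These peaks show that absence of overlap covered both isolated sites and neighbours of other FLAG peaks.

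The third by score, on chromosome 13 from 39669841 to 39671305, held 238 tags at 18.6-fold and lay 55.6 kb from H3K4me2. The fourth lay on chromosome 3 from 78094277 to 78096268, with 296 tags at 10.6-fold, and the nearest Etv6 peak was 667 kb away. The fifth lay on chromosome 6 from 76002300 to 76004023, with 283 tags at 13.1-fold, 336 kb from H3K4me2. That peak belonged to a chain of 7 distal EGFP_OK-only peaks with gaps of at most 50 kb.

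Ranked by fold enrichment among peaks with a score of at least 100, other regions came first. The highest was on chromosome 14 from 88606609 to 88607810, at 22.1-fold with 121 tags, which was rank 50 by fold in the EGFP_OK list. It lay 65.1 kb from H3K4me2 and 1117 kb from any Etv6 peak. The second, on chromosome 7 from 57850840 to 57852169, reached 20.04-fold with 132 tags at 672 kb from H3K4me2, with a Pax6 peak 20.3 kb away. The remaining ones lay on chromosome 15 from 30312455 to 30313537 (19.8-fold, 75 tags), on chromosome 18 from 30668553 to 30669695 (19.7-fold, 68 tags) and on chromosome 12 from 43122676 to 43124118 (19.3-fold, 160 tags). None of these 5 had its fold set by the genome-wide background.

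The 5 peaks farthest from H3K4me2 with a score of at least 100 had folds from 6.19 to 14.5. A peak on chromosome 7 from 69446922 to 69447952 lay 1450 kb away, with 45 tags at 7.07-fold. On chromosome 2, 3 peaks of one chain of 5, starting at 55062062, 55034339 and 54982878, lay 1102, 1095 and 1044 kb away, with 67, 57 and 46 tags at 8.31-fold, 6.19-fold and 10.1-fold. The fifth, on chromosome 12 from 49296564 to 49297712, lay 1033 kb away and reached 14.5-fold with 62 tags. Its nearest Pax6 peak was 1178 kb and its nearest Etv6 peak 1185 kb away. In a 100 kb window near 29 Mb on chromosome 4 that held 9 EGFP_OK peaks, 1 met the rule. It spanned 29097099 to 29099183, 67.1 kb from H3K4me2, with 192 tags at 12.7-fold.

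To see how the distal peaks were arranged, they were placed on the stretches between neighbouring H3K4me2 peaks. There were 4229 stretches wider than 100 kb, with a median width of 174 kb, and the parts of them over 50 kb from H3K4me2 came to 965 Mb. The distal EGFP_OK-only peaks occupied 1812 of the stretches (42.8%), and 866 of these held 1 peak. At the other end 231 stretches held 5 or more, and together these contained 1628 peaks, or 37.2% of the set. Pax6 summits over 50 kb from H3K4me2 were found in 23.1% of the stretches and Etv6 summits in 25.7%. In 1065 of the 1812 stretches there was no Pax6 and no Etv6 summit over 50 kb from H3K4me2. This was so in 106 of the 231 stretches with 5 or more. A like count over all 4229 stretches is not given here. These counts thus do not show that Pax6 or Etv6 summits were rarer in stretches with distal EGFP_OK-only peaks.

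The density was highest in the narrower stretches. In a stretch of 100 to 200 kb the counted part lies at most 100 kb from H3K4me2. Density by width is thus tied to the density by distance given above. In stretches of 100 to 200 kb there were 10.6 distal EGFP_OK-only peaks per Mb over 50 kb from H3K4me2, in those of 200 to 500 kb 8.15, in those of 500 to 1000 kb 3.92, and in those over 1000 kb 1.33. Etv6 summits went from 6.29 to 0.985 per Mb over the same steps and Pax6 summits from 4.29 to 0.866. The wide stretches thus held few peaks of any FLAG list for their size, in which bases where no tags can be placed were counted too. Some were exceptions. A stretch of 782 kb on chromosome 1, from 97986106 to 98767611, held 20 distal EGFP_OK-only peaks, with 1 Pax6 and 1 Etv6 summit over 50 kb from its ends. Another on chromosome 1, from 46921290 to 47620275, held 18 and no summit of the other FLAG lists over 50 kb from its ends. One on chromosome 2, from 53939588 to 56164526, also held 18, with 2 Pax6 and 2 Etv6 summits over 50 kb from its ends. Another on chromosome 2, from 7456769 to 8654980, held 17 and no Pax6 or Etv6 summit over 50 kb from its ends.

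**Figure D3:**
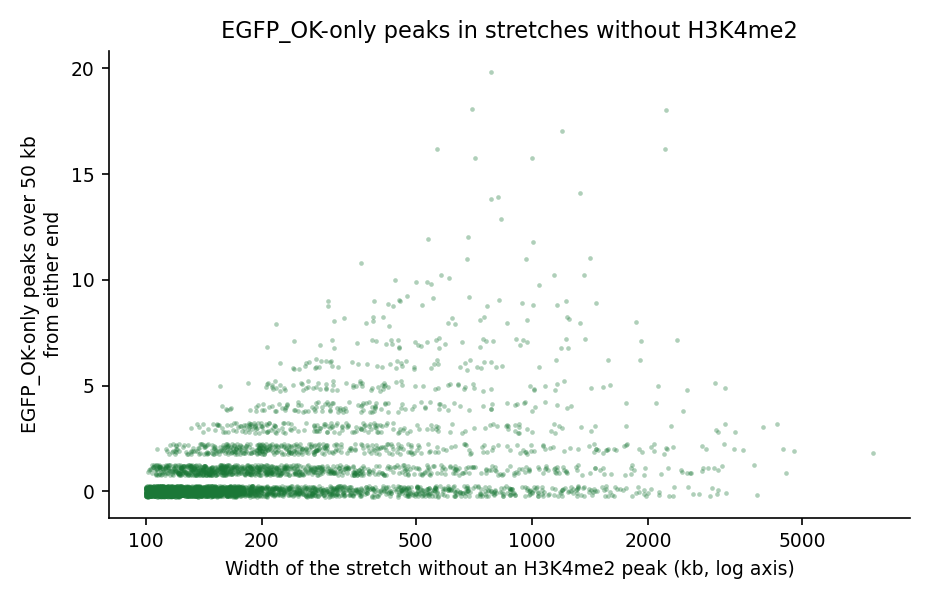
Number of distal EGFP_OK-only peaks (y axis, points spread slightly up and down) in each of the 4229 stretches over 100 kb between neighbouring H3K4me2 peaks, against the width of the stretch in kb (x axis, log scale). Most stretches hold none or 1, and the 231 with 5 or more are found mostly from about 200 kb upwards, up to 20 peaks at 782 kb.

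Many of the distal peaks had a close neighbour of their own class. Another distal EGFP_OK-only summit lay within 50 kb of 2498 of them, which is 57.1% (55.6 to 58.6), and within 5 kb of 4.69%. The share within 50 kb of their own class was 66.5% for the nearer unmarked peaks, 43.2% for the shared peaks and 22.9% for those inside H3K4me2. With EGFP_OK peaks of any class counted, 67.9% of the distal peaks had another within 50 kb, against 80.0% of all EGFP_OK peaks. The distal peaks were thus less crowded than the whole list. Their median distance to the nearest summit of their own class was 37.4 kb. For the nearer unmarked peaks it was 29.3 kb, for the shared peaks 65.0 kb and for those inside H3K4me2 153 kb. These shares and medians are not adjusted for how many peaks each class holds. Both other FLAG lists were sparser at the distances that the rule selects, so the next comparison is a description. A Pax6 or Etv6 peak was nearby less often than around the EGFP_OK-only peaks closer to H3K4me2. One lay within 10 kb of 10.9% (10.0 to 11.9) of the distal EGFP_OK-only summits and of 33.2% (32.4 to 34.0) of the nearer unmarked ones, and within 1 kb of 28 distal summits.

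Chained by gaps of at most 50 kb, the distal peaks formed 910 clusters of 2 or more and left 1875 peaks single. There were 81 clusters of 5 or more, which held 482 peaks (11.0%). Between the first and last summit of 54 of these 81 there was no Pax6 and no Etv6 summit. A like count for other spans of such length is not given here, so no reading is drawn from it. Peaks in clusters of 5 or more had a median fold of 7.12 and 47.5 tags, and single peaks had 7.18 and 38 tags. Clustered peaks thus held more tags at a like fold.

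The largest cluster lay on chromosome 1, with 14 summits between 98243408 and 98557604, a span of 314 kb. Its folds ran from 4.82 to 14.4 and its tags from 26 to 159. It lay between 210 and 388 kb from H3K4me2 and held no Pax6 and no Etv6 summit. The second lay on chromosome 3, with 11 summits between 61635379 and 61825292, folds of 5.11 to 11.9 and no other FLAG summit. There were 6 clusters of 9. The shortest of them covered 112 kb on chromosome 3, from 110297653 to 110409650, with a median gap of 10.1 kb between summits. One on chromosome 15, from 32431918 to 32560416, had 2 Pax6 and 2 Etv6 summits among its 9, and 1 further EGFP_OK summit that was shared. One on chromosome 6, from 64113808 to 64255343, had folds from 5.19 to 18.1, the highest of these 5 clusters, tags from 39 to 203 and no other FLAG summit.

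**Figure D4:**
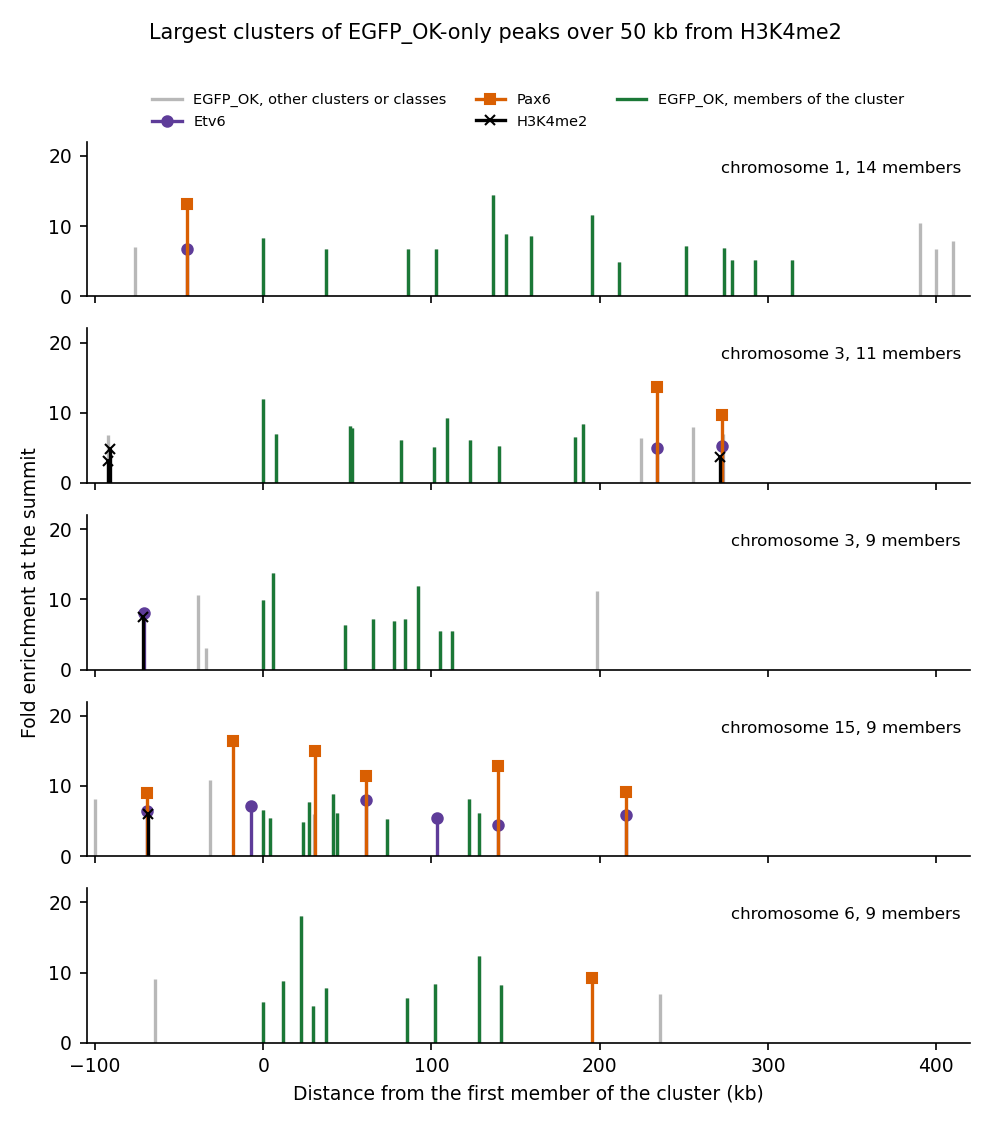
Fold enrichment at the summit (y axis) of peaks in and around 5 large clusters of distal EGFP_OK-only peaks, against the distance in kb from the first member (x axis), with Etv6, Pax6, H3K4me2 and further EGFP_OK peaks up to 100 kb to each side. Pax6 and Etv6 summits lie among the members of the chromosome 15 cluster and not among those of the other 4.

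The distal EGFP_OK-only peaks were spread unequally over the chromosomes. Chromosome 3 held the most, 452 or 10.3% of them (9.45 to 11.3), and chromosome 19 the fewest, 82. Of the other EGFP_OK peaks chromosome 3 also held the most, 9.86%, and chromosome 19 the fewest, 2.65%. As a share of each chromosome's EGFP_OK peaks the distal EGFP_OK-only peaks ran from 8.35% (7.03 to 9.84) on chromosome 11 to 21.9% (19.6 to 24.3) on chromosome 14, with 21.8% on chromosome 4. On chromosomes 3 and 16 this share was 16.4% and 15.0%, near the 15.8% of the whole list. Per Mb over 50 kb from H3K4me2 the order was different. Chromosome 3 had 9.67 per Mb (8.79 to 10.6), chromosome 16 had 9.59 (8.45 to 10.9), chromosome 10 had 7.39 and chromosome 15 had 7.11, while chromosome 9 had 2.47 and chromosome 7 had 1.61. Etv6 summits in the same territory ran from 1.52 per Mb on chromosome 14 to 4.18 on chromosome 2. The ratio of distal EGFP_OK-only peaks to Etv6 summits was 4.10 on chromosome 3, 3.31 on chromosome 10 and 3.25 on chromosome 14, and it was 0.691 on chromosome 9, 0.850 on chromosome 2 and 0.922 on chromosome 11. These chromosomes were picked after their values were seen.

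The share of peaks on the genome-wide background also differed between chromosomes. On the 2 densest chromosomes it was the lowest, at 19.6% of the distal EGFP_OK-only peaks on chromosome 16 and 19.9% of those on chromosome 3. For the remaining peaks the surrounding 10 kb lay above the genome-wide level. Over all EGFP_OK peaks these 2 chromosomes were also the lowest, at 13.7% and 12.7%, and chromosome 18 was the highest, at 43.7%. The pattern was thus not particular to the distal peaks. Among the distal peaks the order did not follow density throughout. Chromosome 10, the next in density, had 38.3%, near the 38.5% of the whole set, and chromosome 11 had 32.8% at 3.42 peaks per Mb. Chromosome 9 had 63.9%, and chromosome 18, with 4.28 peaks per Mb, had the highest share at 67.1%. In the H3K4me2 list the same measure varied less between chromosomes, from 10.6% to 20.3%, and in the Etv6 list it ran from 7.98% on chromosome 16 to 33.8% on chromosome 14. The median tags per distal peak were 48 on chromosome 3 and 47 on chromosome 16, against 35.5 on chromosome 9, while the median folds were 7.16, 6.94 and 7.32. The densities thus differed between chromosomes by more than the folds did. The part of the local background in the density of peaks was not tested.

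**Figure D5:**
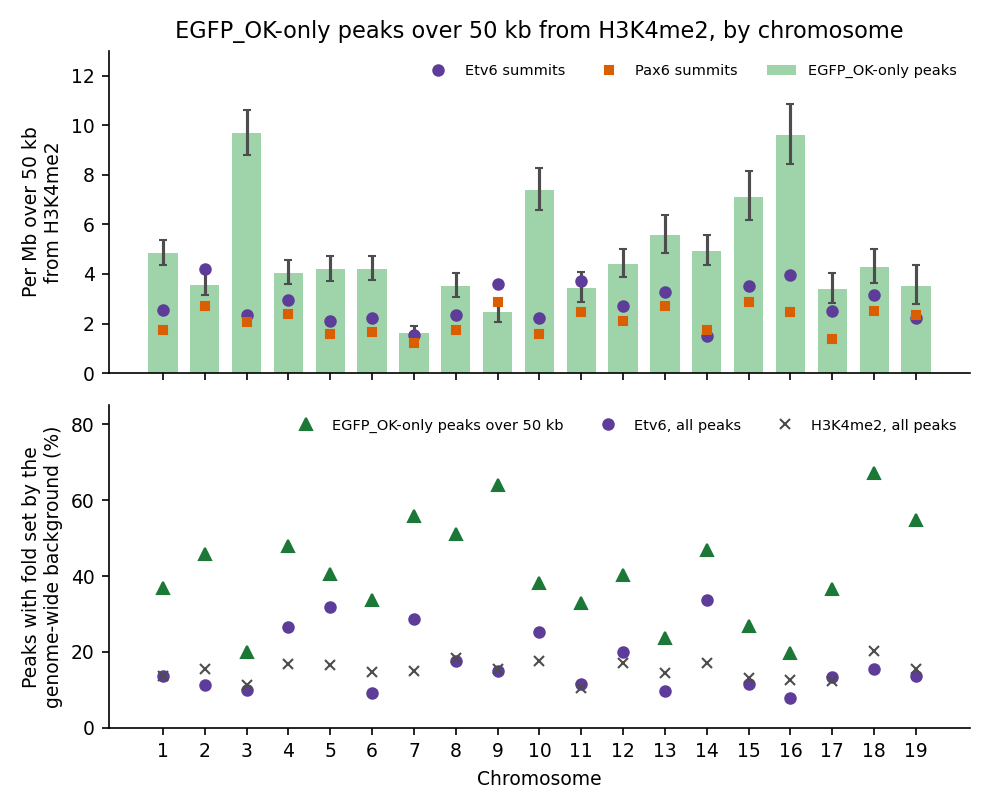
Upper panel, distal EGFP_OK-only peaks (bars, with exact Poisson 95% intervals) and Etv6 and Pax6 summits (points) per Mb of territory over 50 kb from H3K4me2, for chromosomes 1 to 19. Lower panel, percent of peaks whose fold rests on the genome-wide background, for the distal EGFP_OK-only peaks and for all Etv6 and H3K4me2 peaks. Chromosomes 3 and 16 have the most distal peaks per Mb (9.67 and 9.59) and the lowest percentages among the distal peaks (19.9% and 19.6%). Over all EGFP_OK peaks, which are not drawn, these 2 chromosomes are also the lowest (12.7% and 13.7%).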

How the data were processed

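Peak lists of 4 ChIP-seq libraries were used, 1 per group, grouped by title. Build mm9, MACS 1.4.2, BWA 0.6.2 and CASAVA 1.8.1 are named in the submitters' processing notes. The peak caller was MACS 1.4.2, per the file headers, run on each library without a control, at a p cutoff of 1e-05, with at most 1 tag kept per position. Each list gives tag counts per peak, deposited by the authors without normalization, the caller's p-value as a score (its −log10, multiplied by 10), as deposited, and a fold enrichment, a ratio to the library's own background, as deposited.

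Overlaps and distances were computed with pandas 2.3.3 and numpy 2.4.6 in Python 3.11.15 and exact intervals with scipy 1.17.1, and the classes were checked on simulated lists. Named regions were the 5 highest by score, the 5 highest by fold and the 5 farthest from H3K4me2 (both at a score of at least 100), 2 on each side of the 50 kb limit and the largest clusters. The members, rules and lists were chosen with earlier results of these data known. The stretches, territory, per-chromosome and background measures were added after seeing the data. Motif shares were planned and not run, because no mm9 genome was used.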

Additional observations from a re-analysis of the deposited data

Results flagged for a closer look

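EGFP_OK peaks outside chromosomes 1 to 19 were not part of the set, and more than 3 of them met the rest of the rule, which is the limit a count of 0 allows. On chromosome X 248 of 608 EGFP_OK peaks met it, or 40.8% (36.9 to 44.8), with a median of 7.37-fold and 35 tags. That share is above the highest one of chromosomes 1 to 19, 21.9% on chromosome 14, but the territory over 50 kb from H3K4me2 was also large on X, at 120.3 Mb. It held 2.06 such peaks per Mb, fewer than the 4.50 per Mb in the stretches of chromosomes 1 to 19. On chromosome Y or unplaced sequences 7 of 38 peaks met it.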

How the results depend on the processing

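No paired analysis was possible because each group held 1 library. Of 45 alternative values, 23 stayed within 1.5 times the count or within the interval of the value reported and 22 moved. With an H3K4me2 limit of 20 kb the set grew from 4373 to 8589 peaks, with medians of 44 tags, 1099 bp and a score of 93.3, and chromosome 4 held 5.38% of it in place of 6.49%. With 100 kb it shrank to 2067 peaks, with medians of 40 tags, 1050 bp and a score of 87.2, and chromosomes 3 and 14 held 8.95% and 7.40% in place of 10.3% and 6.24%. With only EGFP_OK peaks of a score of at least 100 there were 1931, with medians of 9.16-fold, 64 tags, 1258 bp and a score of 156, and 38.1% had another within 50 kb. With only H3K4me2 peaks of a score of at least 100 there were 6246, with a median width of 1098 bp. The share with a neighbour was 34.1% at 20 kb and 69.5% at 100 kb. Added after seeing the data, equal list lengths gave 8.21% of Etv6 summits over 50 kb from H3K4me2, and a score of at least 100 gave 8.23%. The median fold stayed between 7.21 and 7.28 under both other distance limits, the 1 kb margin around Pax6 and Etv6 peaks and the stricter H3K4me2 list. Alternatives for motif shares were not run, and none could leave out a replicate. With 1 library per group and no control, depth limits absence from the Pax6 list most.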

Other observations

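The distal EGFP_OK-only peaks farthest from H3K4me2 at any score lay at the start of chromosome 14. No H3K4me2 peak lay within the first 7 Mb of that chromosome, and 8 distal EGFP_OK-only peaks lay there, with folds from 2.97 to 8.43, together with 12 Etv6 and 2 Pax6 summits. The farthest of them, from 3085133 to 3086328, was 4636 kb from H3K4me2, with 63 tags at 8.43-fold. These 8 peaks precede the first H3K4me2 peak of the chromosome and so are not among the peaks placed on stretches between H3K4me2 peaks.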
